A study of Homo sapiens with 6 samples.

Results

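Cells break glucose down to pyruvate in glycolysis, and branches of that route feed the pentose phosphate pathway, the nucleotide sugars and the mitochondrial tricarboxylic acid (TCA) cycle. Nucleotide sugars such as UDP-N-acetylglucosamine and CMP-sialic acid are the donors that glycosyltransferases use to build glycans. The enzyme GCNT1 uses UDP-N-acetylglucosamine to start the core 2 branch of O-glycans, so these routes supply its substrate. The results below concern 58 genes that encode enzymes of these routes. They were taken by gene symbol from a list of glycolysis, pentose phosphate, hexosamine and TCA cycle enzymes, and all 58 were found among the 12703 genes with deposited counts. By role, 18 genes belonged to glycolysis, 5 to the use of glucose 1-phosphate, UDP-glucose and galactose, 6 to the pentose phosphate pathway, 10 to hexosamine and sialic acid metabolism, 4 to pyruvate dehydrogenase and 15 to the TCA cycle. The 10 include the deaminases GNPDA1 and GNPDA2, which act against hexosamine synthesis. The 15 include the cytosolic enzymes MDH1 and IDH1.

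The study compared RNA of PC3 cells, an established human line from a bone metastasis of prostate cancer, with and without added GCNT1. The overexpressing group was transduced with lentiviral particles that carry the GCNT1 open reading frame, and the control group with negative control particles. Each group had 3 stably transduced lines, which the labels call biological replicates, and each line gave 1 RNA library. The libraries held 12755888, 12717300 and 12125672 counts in the controls and 11392213, 13411484 and 13825704 counts with overexpression. Levels are given as CPM, with TMM scaling of the library sizes, or as RPKM, the CPM per kilobase of the MANE Select transcript, where genes are compared with each other. At these depths the floor of 3 counts lay between 0.217 and 0.263 CPM before TMM scaling, a limit that covers counting error only. Every log2 fold change is overexpression minus control, and each adjusted p, unless another tool or a range over the alternatives is named, is that of the quasi-likelihood test of edgeR, corrected by the Benjamini-Hochberg method over the 12703 genes.

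The labels were checked first on GCNT1 itself. It was counted 9, 13 and 8 times in control libraries 1, 2 and 3, and 13, 16 and 35 times in the overexpressing libraries. After scaling, these counts were 0.715, 1.04 and 0.677 CPM in the controls and 1.12, 1.16 and 2.48 CPM with overexpression. The groups did not overlap on this scale, but the highest control and the lowest overexpressing library were close to each other. The log2 fold change of GCNT1 was 0.98 (SE, the standard error, 0.37; adjusted p = 0.0362). Without overexpressing library 3 it was 0.49 with an adjusted p of 0.269 from the same edgeR test. The adjusted p was also above the threshold under DESeq2 (0.0821), without control library 1 (0.092) and without control library 3 (0.0944), and it ranged from 0.011 to 0.269 over the alternatives that tested GCNT1. A minimum of 10 counts in every library left it out of the test. For the cell type, keratins of simple epithelium were abundant in both groups. KRT18 had 253 ± 7.94 CPM (SD, n = 3) in the controls and 222 ± 8.53 CPM (SD, n = 3) with overexpression. KLK2, KLK3 and FOLH1, which mark prostate luminal cells, were absent from the 12703 genes, as were the basal keratins KRT5 and KRT14. Of 8 fibroblast markers 3 were in the table. COL3A1 gave most of their counts, with 139 ± 27.2 CPM (SD, n = 3) in the controls and 36.2 ± 2.04 CPM (SD, n = 3) with overexpression, and COL1A2, PDGFRA, PDGFRB, DCN and LUM were absent. The 3 fibroblast markers together held 0.0178, 0.0126 and 0.0155% of the counts in the control libraries and 0.00479, 0.00508 and 0.00484% in the overexpressing libraries. Of 7 blood and endothelial markers only PECAM1 was in the table, at 0.000141, 0.000189 and 0.00019% of counts in the controls and 0.000518, 0.000403 and 0.000434% with overexpression, while PTPRC, CD3E, CD14, VWF and CDH5 were absent. The part of these markers in the differences described here was not tested.

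Genes of glycolysis and of glucose 1-phosphate, UDP-glucose and galactose use fell more often than they rose, while the other roles had both directions or few changes. Of the 58 enzyme genes 12 were higher and 23 lower with GCNT1 overexpression at an adjusted p of 0.05, and 23 did not pass. Over all genes tested, 28.3% were higher and 29.3% lower at this threshold, so a change in either direction was common in this comparison. With an absolute log2 fold change of at least 0.58 in addition, 2 of the 58 genes were higher (ENO3 and SUCLG2) and 6 lower (ALDOC, RPE, ENO1, LDHA, MDH1 and PGK1). The shares over all genes were 8.28% higher and 11.1% lower. The median log2 fold change was -0.07 over the 58 genes and 0.00 over all genes. The roles differed from one another in these counts. In glycolysis 3 genes were higher and 12 lower, with a median log2 fold change of -0.38, and all 5 genes of glucose 1-phosphate, UDP-glucose and galactose use were lower, with a median of -0.46. The pentose phosphate genes had 2 higher and 1 lower (median 0.04), and the hexosamine and sialic acid genes 3 higher and 1 lower (median 0.10), or 6 higher and 1 lower (median 0.15) with library size alone. The 3 higher genes were NANS and the deaminases GNPDA1 and GNPDA2, and the lower gene was GFPT2. In pyruvate dehydrogenase 1 gene was lower and none higher. In the TCA cycle 4 genes were higher and 3 lower, the latter being OGDH and the cytosolic forms MDH1 and IDH1. The medians of these last 2 roles were both -0.03, and they were 0.03 and 0.02 when the counts were scaled by library size alone. That scaling gave 18 higher and 21 lower genes among the 58, so that 46.2% of the genes past the threshold were higher, against 34.3% with TMM scaling. It also raised the median of all genes to 0.06.

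**Figure D1:**
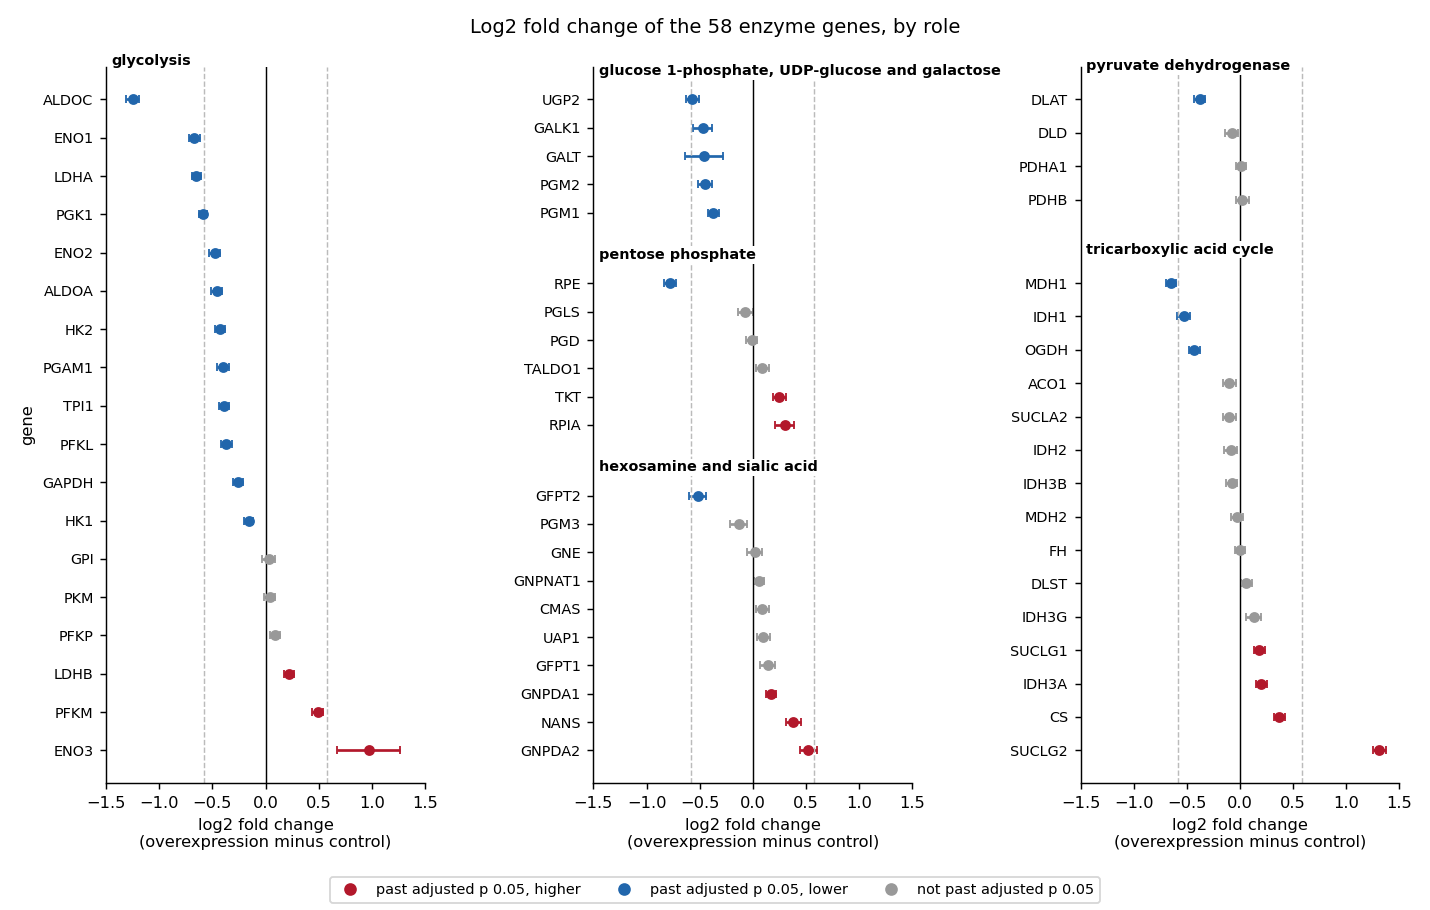
Log2 fold change of each of the 58 genes (overexpression minus control, horizontal axis) by role, with bars of 1 standard error and dashed lines at the fold threshold on each side. Of the 18 glycolysis genes 12 were lower and 3 higher at an adjusted p of 0.05, most of them inside the dashed lines, while the 15 TCA cycle genes are spread around 0.

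Glycolytic genes are highly expressed in many cells, and here the 18 of them held 2.53, 2.58 and 2.68% of all counts in the control libraries. In the overexpressing libraries they held 2.19, 2.08 and 2.07%. The groups did not overlap, and the ratio of the means was 0.814. The 80 genes of cytosolic ribosomal proteins, another abundant group, held 4.04 ± 0.125% (SD, n = 3) in the controls and 4.18 ± 0.158% (SD, n = 3) with overexpression. Abundant genes of this data set were lower more often than the average gene, since 44% of the 500 most abundant genes were lower and 25.8% higher. That comparison was added after the data were seen.

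LDHA encodes the lactate dehydrogenase subunit that favours the reduction of pyruvate to lactate. Its level was 3906, 3949 and 3956 CPM in control libraries 1 to 3 and 2524, 2519 and 2458 CPM in the overexpressing libraries. The 3 values of each group lay close together and far from those of the other group. LDHA fell, with a log2 fold change of -0.65 (SE 0.04; adjusted p = 1e-08). ENO1, the main enolase, converts 2-phosphoglycerate to phosphoenolpyruvate. It had 4615, 4837 and 5120 CPM in the controls and 3225, 2955 and 3009 CPM with overexpression, so each overexpressing library was below every control. Its log2 fold change was -0.67 (SE 0.05; adjusted p = 1.2e-07). PGK1 encodes phosphoglycerate kinase, which makes ATP from 1,3-bisphosphoglycerate. It had 2773, 2651 and 2663 CPM in the controls and 1777, 1817 and 1779 CPM with overexpression. The groups were again separate, and the log2 fold change was -0.59 (SE 0.04; adjusted p = 4.42e-08), just past the fold threshold. With library size alone it was -0.53, which is under that threshold. ALDOC, an aldolase best known from brain, had the largest fall of the 58 genes. Its level was 119, 114 and 126 CPM in the controls and 51.4, 52.4 and 47 CPM with overexpression, without overlap. The log2 fold change was -1.25 (SE 0.06; adjusted p = 2.97e-09).

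Because these 4 genes of glycolysis passed both thresholds and fell together, their promoters are shown, next to that of SUCLG2, the gene with the largest rise. The windows are RefSeq sequences of GRCh38.p14 from 250 bases before to 50 bases after the transcription start, on the strand of the gene. Capitals mark ACGTG or GCGTG on either strand, the core letters of the hypoxia response element to which HIF-1 binds. The E-box CACGTG, bound by MYC and related factors, contains ACGTG on both strands, and such a match was counted once. LDHA is shown at chr11:18394313-18394612 (plus strand), ALDOC at chr17:28576846-28577145 (minus), PGK1 at chrX:78103998-78104297 (plus), ENO1 at chr1:8878637-8878936 (minus) and SUCLG2 at chr3:67654563-67654862 (minus).
LDHA: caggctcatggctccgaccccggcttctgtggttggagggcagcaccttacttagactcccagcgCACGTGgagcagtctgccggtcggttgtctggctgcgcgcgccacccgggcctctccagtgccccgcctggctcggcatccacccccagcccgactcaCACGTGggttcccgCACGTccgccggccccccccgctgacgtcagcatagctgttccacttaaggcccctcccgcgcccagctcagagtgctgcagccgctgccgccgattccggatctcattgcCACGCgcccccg
ALDOC: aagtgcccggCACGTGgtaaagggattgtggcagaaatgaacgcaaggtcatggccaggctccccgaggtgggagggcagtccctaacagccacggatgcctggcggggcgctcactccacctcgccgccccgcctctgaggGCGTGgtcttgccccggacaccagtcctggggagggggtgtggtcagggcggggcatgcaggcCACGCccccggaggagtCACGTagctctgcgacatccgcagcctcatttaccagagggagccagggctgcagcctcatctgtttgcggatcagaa
PGK1: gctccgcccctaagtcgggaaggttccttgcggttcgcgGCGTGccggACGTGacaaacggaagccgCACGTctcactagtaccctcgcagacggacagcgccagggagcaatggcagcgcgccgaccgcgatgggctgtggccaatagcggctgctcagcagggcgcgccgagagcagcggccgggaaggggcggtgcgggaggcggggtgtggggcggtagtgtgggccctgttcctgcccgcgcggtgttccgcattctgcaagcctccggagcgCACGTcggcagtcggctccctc
ENO1: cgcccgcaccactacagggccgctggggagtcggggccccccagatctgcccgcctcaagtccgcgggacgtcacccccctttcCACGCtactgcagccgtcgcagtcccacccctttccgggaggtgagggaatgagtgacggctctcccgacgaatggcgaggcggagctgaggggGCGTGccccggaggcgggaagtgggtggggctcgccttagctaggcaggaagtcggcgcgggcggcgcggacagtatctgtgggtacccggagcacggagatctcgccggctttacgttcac
SUCLG2: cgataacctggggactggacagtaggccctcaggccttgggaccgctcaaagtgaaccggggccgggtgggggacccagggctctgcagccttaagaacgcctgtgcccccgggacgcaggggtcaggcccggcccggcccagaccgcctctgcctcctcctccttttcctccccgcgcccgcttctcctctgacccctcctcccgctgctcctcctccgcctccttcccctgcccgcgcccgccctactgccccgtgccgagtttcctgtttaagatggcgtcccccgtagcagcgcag
LDHA has a second window, which is not shown. The windows of LDHA, ALDOC and PGK1 shown here each held 4 matches and that of ENO1 held 2. CACGTG occurred 2 times in LDHA and 1 time in ALDOC, and the SUCLG2 window held none of these letters. RPE and MDH1, the other lower genes of the 58 past both thresholds, are not shown and held no match in any window. ENO3, the other higher gene past both, is not shown either, and held 2 matches in 1 window and none in its second. Promoter windows were given for 57 of the 58 genes (not OGDH), in 88 windows. ACGTG or GCGTG was present in 48.4% of all 35116 windows and in 60.7% of the 14985 windows of genes tested here. Since several windows can belong to 1 gene, genes were counted as well, each with a match in at least 1 window. ACGTG or GCGTG was then found in 81.8% of the 22 lower genes, 75% of the 12 higher genes and 73.9% of the 23 genes that did not pass, against 70.4% of the genes tested. CACGTG was present in 7.26% of all windows and in 9.16% of those of genes tested. Counted by gene it was found in 7 of the 22 lower genes, 1 of the 12 higher genes and 1 of the 23 others, against 12.4% of the genes tested. Over all genes tested the order was the opposite. There CACGTG was present in 8.09% of the windows of lower genes and in 10.5% of those of higher genes. These matches describe the letters of the windows only.

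The other abundant glycolysis genes mostly fell by less. GAPDH, which oxidizes glyceraldehyde 3-phosphate, had 4534, 4672 and 4996 CPM in the controls and 4156, 3827 and 3896 CPM with overexpression. The groups did not overlap, and the log2 fold change was -0.26 (SE 0.05; adjusted p = 0.000437). ALDOA, TPI1, PGAM1 and ENO2 fell with log2 fold changes of -0.46, -0.39, -0.40 and -0.48. The hexokinases start the pathway by phosphorylating glucose. HK2, the inducible form that many tumours express, fell with a log2 fold change of -0.43, and HK1, the form of most tissues, with -0.16. The fall of HK1 did not pass the threshold with library size alone, where its adjusted p from edgeR was 0.0532, and over the alternatives it ranged from 0.00482 to 0.0532. PKM, the pyruvate kinase that makes pyruvate, had 4545, 4806 and 5047 CPM in the controls and 5228, 4848 and 4778 CPM with overexpression. These ranges overlapped, and the log2 fold change was 0.04 (SE 0.05; adjusted p = 0.451). GPI, the isomerase of the second step, showed a log2 fold change of 0.03 (adjusted p = 0.682). On the RPKM scale ENO1 lay above PKM in each control library, with 2591, 2716 and 2875 against 1972, 2085 and 2190. With overexpression the order was the opposite in each library, with 1811, 1659 and 1690 RPKM for ENO1 and 2268, 2103 and 2073 RPKM for PKM.

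**Figure D2:**
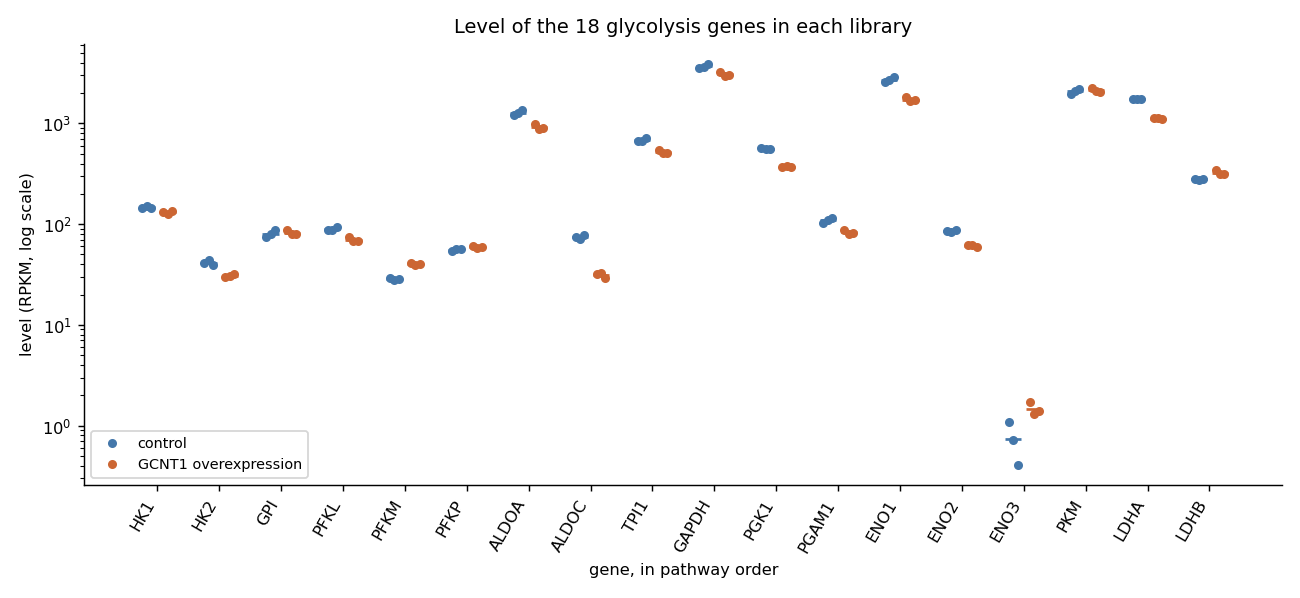
Level of the 18 glycolysis genes in each library (RPKM, log scale), in the order of the pathway, with 1 point per library and a line at the group mean. The overexpressing libraries lie below the controls for 12 genes, among them LDHA, PGK1 and ENO1, and above them for PFKM, LDHB, ENO3 and PFKP (the last not past the threshold), while the PKM points of the groups overlap.

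Several steps are shared by isozymes. The share of each isozyme within its set was taken from counts per base of transcript, which does not depend on the scaling of libraries. In the lactate dehydrogenase set, LDHB, the subunit of heart-type enzyme that favours lactate oxidation, held 13.9, 13.5 and 13.7% in the controls. It held 23.3, 22 and 22.5% with overexpression, so its share was higher in each overexpressing library. LDHB itself had 368, 357 and 365 CPM in the controls and 445, 412 and 414 CPM with overexpression, without overlap. It rose with a log2 fold change of 0.22 (SE 0.05; adjusted p = 0.000936), and the summed level of LDHA and LDHB was 2036 ± 9.92 RPKM (SD, n = 3) in the controls and 1441 ± 26.4 RPKM (SD, n = 3) with overexpression. Phosphofructokinase commits glucose to glycolysis and exists in liver (PFKL), muscle (PFKM) and platelet (PFKP) forms. PFKL held 51.3, 51.1 and 52.6% of the set in the controls and 42.1, 41.1 and 40.5% with overexpression. PFKM held 17, 16.3 and 16.1% in the controls and 23.7, 23.9 and 24% with overexpression. PFKL therefore remained the largest part of the set in every library, with a smaller lead. PFKL had 256, 257 and 274 CPM in the controls and 214, 196 and 198 CPM with overexpression, and PFKM had 89.9, 87.1 and 88.8 CPM against 128, 121 and 125 CPM. Neither gene overlapped between the groups. PFKL fell (log2 fold change -0.37, adjusted p = 4.16e-05 from edgeR) and PFKM rose (0.49, adjusted p = 3.12e-06 from edgeR), while PFKP had 0.09 (adjusted p = 0.134 from edgeR). The summed level of the 3 forms was 174 ± 4.11 RPKM (SD, n = 3) in the controls and 169 ± 5.68 RPKM (SD, n = 3) with overexpression, and the libraries of the groups overlapped. PFKP passed the threshold with library size alone, where its adjusted p from edgeR was 0.0168 within a range of 0.0168 to 0.294 over the alternatives.

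In the aldolase set ALDOC held 5.49 ± 0.288% (SD, n = 3) in the controls and 3.26 ± 0.239% (SD, n = 3) with overexpression. Among the enolases the muscle form ENO3 was counted only 20, 13 and 7 times in the controls and 29, 26 and 29 times with overexpression. It rose with a log2 fold change of 0.97 (SE 0.30; adjusted p = 0.0132), but it remained at 0.0268% of the enolase set in the controls and 0.0828% with overexpression. Its call ended without control library 3 (log2 fold change 0.69, adjusted p = 0.0538 from edgeR), and a minimum of 10 counts in every library left it out of the test. Over its alternatives the adjusted p ranged from 0.00323 to 0.0538. Shares within 1 set are not independent, since a rise in 1 of them lowers the others, and sets of other genes were not compared. The groups nearly met for IDH3G, at 35% in control library 3 and 35.1% in overexpressing library 3. All 17 shares tested over 9 sets differed without overlap between the groups. Each had a two-sided exact permutation p of 0.1, which is the smallest value 3 against 3 libraries can give and stays 0.1 after Benjamini-Hochberg adjustment.

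**Figure D3:**
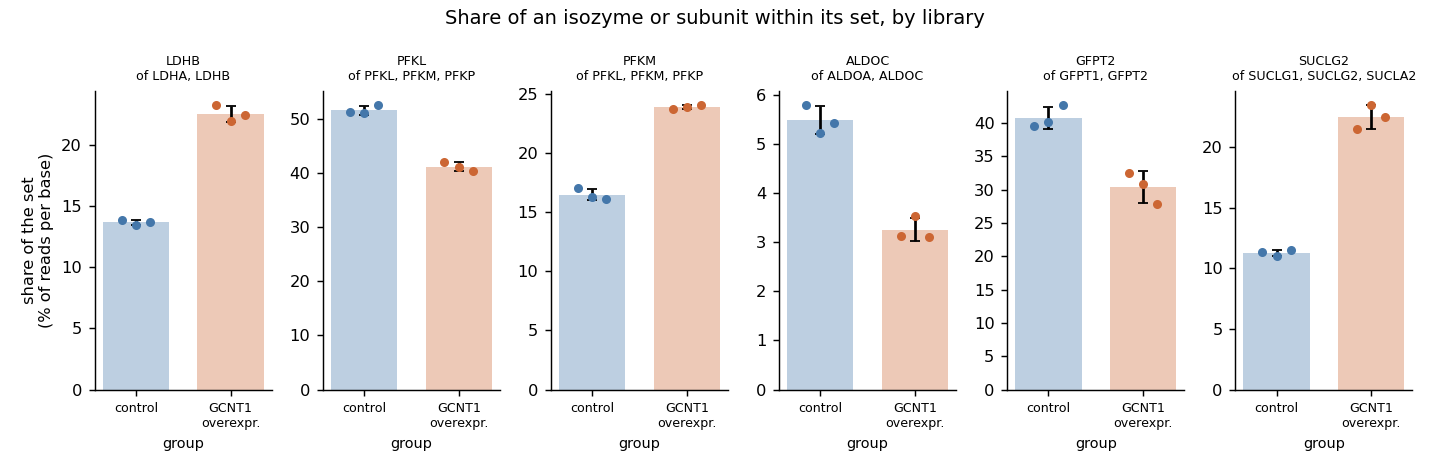
Share of 6 isozymes or subunits within their sets (percent of reads per base, bars are means of 3 libraries, error bars are SD, points are libraries) in control and GCNT1 overexpressing cells. LDHB rises from 13.7 to 22.6% and SUCLG2 from 11.3 to 22.5%, while PFKL goes from 51.7 to 41.2% and GFPT2 from 40.8 to 30.3%.

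The 5 genes counted for the use of glucose 1-phosphate, UDP-glucose and galactose were lower, but not every related gene outside the 58 was. GALK2 and PGM5 rose with log2 fold changes of 0.32 (adjusted p = 0.00375) and 0.26 (adjusted p = 0.00068), and PGM2L1 did not pass (-0.02). UGP2 joins glucose 1-phosphate to UTP and so makes UDP-glucose, the donor for glycogen and the source of UDP-galactose. It had 78.5, 80.6 and 75.4 CPM in the controls and 52.8, 51.9 and 53.7 CPM with overexpression. The groups were well separated, with a log2 fold change of -0.57 (SE 0.06; adjusted p = 2e-06). PGM1, the phosphoglucomutase that interconverts glucose 6-phosphate and glucose 1-phosphate, and its relative PGM2 fell with log2 fold changes of -0.37 and -0.45. GALK1, the galactokinase that starts the Leloir pathway of galactose use, fell with -0.47. GALT, which exchanges galactose 1-phosphate for the glucose of UDP-glucose, was counted 62, 66 and 75 times in the controls and 34, 67 and 57 times with overexpression. These counts overlapped before scaling, and after it the lowest control (4.93 CPM) lay just above the highest overexpressing library (4.88 CPM). The log2 fold change was -0.46 (SE 0.18; adjusted p = 0.045). The call of GALT was lost under DESeq2, with library size alone and without control library 2, control library 3, overexpressing library 1 or overexpressing library 3. Its adjusted p ranged from 0.0156 to 0.155 over the alternatives.

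The pentose phosphate pathway makes NADPH in its oxidative part and ribose 5-phosphate in its non-oxidative part. In the non-oxidative part RPE and RPIA act on the same substrate, ribulose 5-phosphate, and they moved in opposite directions. RPE, the epimerase, had 96.4, 94.3 and 86.6 CPM in the controls and 55.6, 53.4 and 52.1 CPM with overexpression. The groups did not overlap, and the log2 fold change was -0.78 (SE 0.06; adjusted p = 1.98e-07). RPIA, the isomerase that makes ribose 5-phosphate, had 22.6, 20.2 and 22.4 CPM in the controls and 28.2, 24 and 28.4 CPM with overexpression. It rose, with a log2 fold change of 0.30 (SE 0.09; adjusted p = 0.00919). The rise of RPIA did not pass without control library 2 (adjusted p = 0.0529 from edgeR) or without overexpressing library 3 (0.0512), within a range of 0.00232 to 0.0529 over the alternatives. TKT, the transketolase that links this pathway with glycolysis, had 261, 275 and 288 CPM in the controls and 356, 306 and 318 CPM with overexpression. It rose with a log2 fold change of 0.25 (SE 0.06; adjusted p = 0.00307). PGD and PGLS of the oxidative part had log2 fold changes of -0.01 (adjusted p = 0.883 from edgeR) and -0.07 (adjusted p = 0.365 from edgeR).

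The hexosamine pathway makes UDP-N-acetylglucosamine from fructose 6-phosphate, and a further branch makes CMP-sialic acid. Glutamine:fructose-6-phosphate amidotransferase, encoded by GFPT1 and GFPT2, is its entry step. GFPT2 had 30.6, 30 and 29.4 CPM in the controls and 21.1, 22.6 and 19.1 CPM with overexpression. It fell, with no overlap and a log2 fold change of -0.52 (SE 0.08; adjusted p = 9.68e-05). GFPT1 had 133, 128 and 113 CPM in the controls and 125, 145 and 142 CPM with overexpression. Its groups overlapped, and the log2 fold change was 0.14 (SE 0.07; adjusted p = 0.103). GFPT1 passed the threshold with library size alone, without control library 1 and without overexpressing library 1, with an adjusted p between 0.0107 and 0.364 over the alternatives. The share of GFPT2 in the pair was 40.8 ± 1.68% (SD, n = 3) in the controls and 30.3 ± 2.38% (SD, n = 3) with overexpression. Their summed level was 24.3 ± 1.42 RPKM (SD, n = 3) in the controls and 22.8 ± 1.42 RPKM (SD, n = 3) with overexpression, and it overlapped between the groups. The later enzymes GNPNAT1, PGM3 and UAP1 had log2 fold changes of 0.06, -0.13 and 0.10 and did not pass the threshold.

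The deaminases that return glucosamine 6-phosphate to glycolysis, GNPDA1 and GNPDA2, both rose. GNPDA2 had 25.7, 24.9 and 23.2 CPM in the controls and 32.7, 36.8 and 36.3 CPM with overexpression. Each overexpressing library was above every control, with a log2 fold change of 0.52 (SE 0.08; adjusted p = 6.15e-05). GNPDA1, the more highly expressed of the pair on the RPKM scale, rose by less, with a log2 fold change of 0.17 (adjusted p = 0.00897). Its adjusted p was 0.0505 without control library 2 and ranged from 0.00125 to 0.0505 over the alternatives. In sialic acid synthesis NANS, which makes the 9-phosphate of sialic acid, had 54.2, 59.7 and 60.3 CPM in the controls and 81, 72.4 and 74.2 CPM with overexpression. It rose without overlap (log2 fold change 0.38; SE 0.07; adjusted p = 0.000221). The bifunctional epimerase and kinase GNE, which controls the entry of this branch, showed a log2 fold change of 0.02 (adjusted p = 0.813), and CMAS, which activates sialic acid with CMP, had 0.09 (adjusted p = 0.219).

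Pyruvate dehydrogenase joins glycolysis to the TCA cycle. Its E1 subunit genes PDHA1 and PDHB had log2 fold changes of 0.01 and 0.02, and DLD, the shared E3 subunit, had -0.08. None of these 3 genes passed the threshold. DLAT, the E2 acetyltransferase, had 108, 116 and 113 CPM in the controls and 85.8, 89.1 and 85 CPM with overexpression. It fell without overlap (log2 fold change -0.38, SE 0.05; adjusted p = 4.64e-05).

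In the TCA cycle the largest difference was at succinyl-CoA ligase, the step that makes GTP or ATP. SUCLG2 encodes the GTP-specific beta subunit. It was counted 385, 367 and 365 times in the controls and 825, 1058 and 1083 times with overexpression, which was 30.6, 29.5 and 30.9 CPM against 71.3, 77 and 76.8 CPM. The groups were far apart. SUCLG2 rose with a log2 fold change of 1.31 (SE 0.06; adjusted p = 1.76e-09), or 2.48-fold. SUCLA2, the ATP-specific beta subunit, had 50.5, 47.9 and 44.8 CPM in the controls and 43.5, 45.1 and 45.5 CPM with overexpression. These values overlapped, and the log2 fold change was -0.10 (SE 0.06; adjusted p = 0.222). The alpha subunit SUCLG1, which pairs with either beta subunit, rose with a log2 fold change of 0.18 (adjusted p = 0.0103). The rise of SUCLG1 did not pass without overexpressing library 3 (adjusted p = 0.057, range over the alternatives 0.00151 to 0.057). Between the beta subunits the order on the RPKM scale was reversed, since SUCLA2 held 19.8 ± 1.24% and SUCLG2 11.3 ± 0.239% of the set in the controls (SD, n = 3). With overexpression SUCLA2 held 14.9 ± 0.389% and SUCLG2 22.5 ± 1.02% (SD, n = 3).

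Some reactions of the cycle have both a cytosolic and a mitochondrial form. MDH1, the cytosolic malate dehydrogenase of the malate-aspartate shuttle, had 208, 203 and 217 CPM in the controls and 141, 129 and 131 CPM with overexpression. It fell without overlap (log2 fold change -0.65, SE 0.05; adjusted p = 3.25e-07). MDH2, the mitochondrial form, showed a log2 fold change of -0.03 (adjusted p = 0.672). IDH1, the cytosolic NADP-dependent isocitrate dehydrogenase, had 121, 115 and 111 CPM in the controls and 77.2, 82.6 and 80.6 CPM with overexpression. It also fell without overlap (log2 fold change -0.53, adjusted p = 3.25e-06), while its mitochondrial counterpart IDH2 had -0.09 (adjusted p = 0.259). Whether the cytosolic and mitochondrial forms differed from each other in their change was not tested. CS, the citrate synthase that opens the cycle, had 209, 210 and 225 CPM in the controls and 284, 276 and 275 CPM with overexpression. It rose with a log2 fold change of 0.37 (SE 0.05; adjusted p = 1.87e-05). OGDH, the E1 subunit of 2-oxoglutarate dehydrogenase, fell with -0.43 (adjusted p = 8.2e-06). IDH3A, the catalytic subunit of the NAD-dependent isocitrate dehydrogenase, rose with 0.20 (adjusted p = 0.00471). FH, ACO1, DLST, IDH3B and IDH3G did not pass and had log2 fold changes between -0.10 and 0.13. The 15 genes together held 0.183 ± 0.00277% of counts in the controls and 0.185 ± 0.00421% with overexpression (SD, n = 3).

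Chromosomal position was compared as well, because neighbouring genes can move together in a cell line. For each gene the median log2 fold change of the 50 nearest tested genes was taken, and it ranged from -0.50 to 0.76 around the 58 genes. All 23 lower genes had log2 fold changes below their local median, and 10 of the 12 higher genes lay above theirs. The other 2 were NANS, with a local median of 0.44 on chromosome 9, and IDH3A, with 0.22 on chromosome 15. Of the 10, LDHB was only 0.04 and CS only 0.07 above the local median. Both counts lean on the calls, because a gene called by its own distance from 0 mostly falls on that side of a median near 0. The local median was above 0.2 for 13 of the 58 genes and below -0.2 for 7. The same counts over all called genes were not made. MDH1 (GRCh38.p14, chr2:63588963-63607197) and UGP2 (chr2:63840969-63891560) lie close together, among genes with medians of -0.50 and -0.49, so their own values were only 0.15 and 0.08 lower. TPI1, GAPDH and ENO2 lie near one another on chromosome 12, where the local medians were 0.26, 0.25 and 0.18. These 3 genes fell among neighbours with medians above 0. PFKP (chr10:3067548-3136805) showed a log2 fold change of 0.09 amid neighbours with a median of 0.76, and PKM on chromosome 15 had 0.04 amid neighbours with 0.38. SUCLG2 (chr3:67360460-67654612) was 1.06 and ALDOC -1.34 relative to the local median. The part of position in the differences was not tested.

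**Figure D4:**
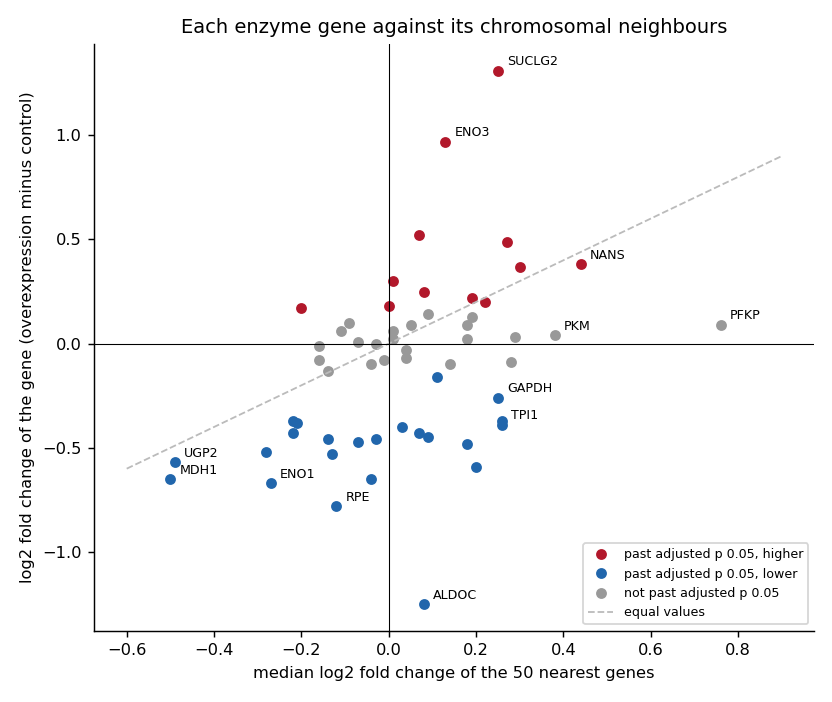
Log2 fold change of each of the 58 genes (vertical axis) against the median log2 fold change of its 50 nearest tested genes (horizontal axis), colored by call, with a dashed line of equal values. The lower genes lie below the dashed line, and PFKP stands at the far right with a local median of 0.76 and a log2 fold change of 0.09.

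Other genes of the same routes, on lists not limited to the 58, were compared too. Of 106 listed genes 80 had counts, and 24 of them were higher (30%) and 34 lower (42.5%), with a median log2 fold change of -0.15. Over all genes tested 28.3% were higher and 29.3% lower. In glucose, lactate and pyruvate transport 1 of 13 genes was higher and 7 were lower. SLC16A3, the transporter that exports lactate from glycolytic cells, had 397, 398 and 429 CPM in the controls and 226, 200 and 209 CPM with overexpression. It fell without overlap (log2 fold change -0.95, adjusted p = 1.19e-08). SLC2A13, a proton-coupled transporter of myo-inositol, and SLC2A12, a glucose transporter, fell with log2 fold changes of -0.89 and -0.75. SLC2A1, the glucose transporter of most cells, fell with -0.41 (adjusted p = 2.46e-05). Pyruvate dehydrogenase kinases switch the complex off and its phosphatases switch it on, and some genes of these regulators differed strongly. PDK3 had 90.1, 81.4 and 73.7 CPM in the controls and 23.6, 26.6 and 24.9 CPM with overexpression, a fall without overlap (log2 fold change -1.71, adjusted p = 1.95e-09). PDP1, a catalytic subunit of the phosphatase, had 48.5, 47.5 and 43.5 CPM in the controls and 143, 152 and 147 CPM with overexpression. It rose without overlap (log2 fold change 1.67, adjusted p = 1.04e-10). TXNIP, an inhibitor of glucose uptake whose transcription follows sugar phosphates, fell with -0.95 (adjusted p = 8.62e-09). Among these 12 regulators as a whole 5 were higher and 5 lower.

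FBP1 encodes fructose-1,6-bisphosphatase, which runs the phosphofructokinase step backwards in gluconeogenesis. It had 4.61, 3.53 and 5.58 CPM in the controls and 27.4, 25.3 and 25.9 CPM with overexpression. The groups were far apart, and the log2 fold change was 2.52 (SE 0.12; adjusted p = 2.33e-09). In its list of gluconeogenesis, anaplerosis and citrate export 5 of 19 genes were higher (26.3%) and 9 lower (47.4%). The shares over all genes tested were 28.3% higher and 29.3% lower. Among other isozymes and missing steps 6 of 16 were higher (37.5%) and 8 lower (50%). There OGDHL, an alternative E1 subunit for 2-oxoglutarate, rose (log2 fold change 1.16, adjusted p = 2.61e-06). In the use and salvage of hexosamines and nucleotide sugars 7 of 20 genes were higher (35%) and 5 lower (25%), near the shares over all genes. UAP1L1, a relative of UAP1, rose with 0.83 (adjusted p = 3.76e-06) amid neighbours with a median of 0.60.

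**Figure D5:**
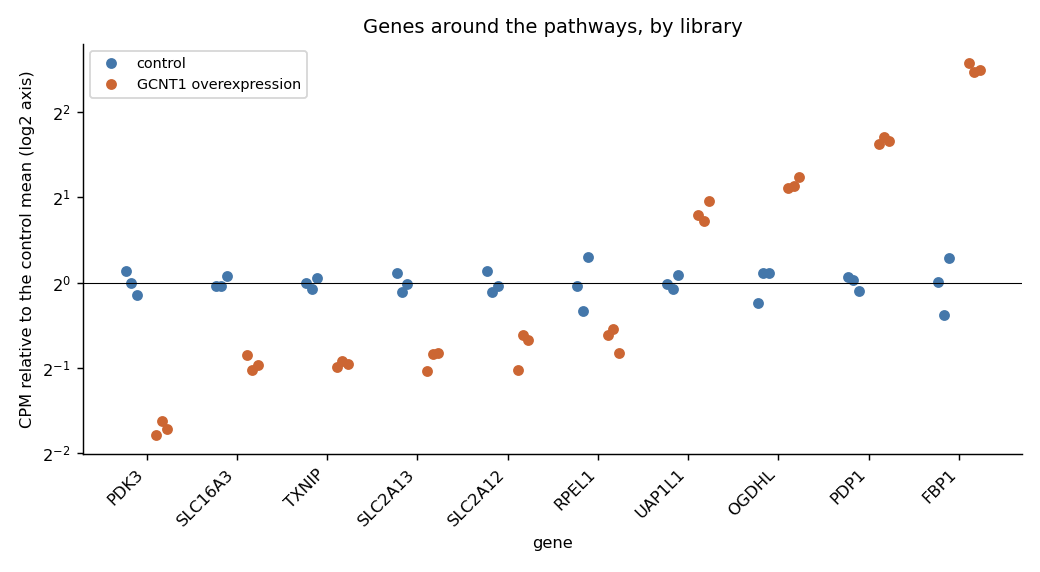
CPM of 10 named genes around the pathways in each library, divided by the control mean of the gene (log2 axis), with 1 point per library. PDK3 is lowest and FBP1 highest with overexpression, with log2 fold changes of -1.71 and 2.52.

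Many of these enzymes have pseudogene copies, whose reads the counting could have split or lost. GENCODE 44 names 65 copies of GAPDH, 13 of PGAM1, 6 of LDHA, 6 of RPE, 5 of PKM and 4 each of ENO1 and TPI1. The counts of these genes are uncertain to that extent. TPI1P2 and TPI1P3, copies of TPI1, were in the table with 18, 18 and 15 and with 13, 14 and 12 counts in the controls, against 11360, 11190 and 11428 for TPI1. RPEL1, a copy of RPE that can encode an enzyme, was counted 26, 21 and 31 times in the controls and 16, 20 and 17 times with overexpression, with a log2 fold change of -0.65 (adjusted p = 0.034). Its call was lost under DESeq2 (0.138) and without control library 1 (0.0635), control library 3 (0.148) or any 1 of the overexpressing libraries. Its adjusted p ranged from 0.022 to 0.148 over the alternatives. Exons of RPE, PFKM, NANS, DLAT, MDH1, IDH3A, GNPDA2, SUCLA2 and ENO3, among other genes described above, overlap a protein coding gene on the opposite strand. Exons of ALDOA, GALT, GPI, LDHB, CS and PGK1 overlap 1 on the same strand, over 1751 bases in GALT and 1639 in ALDOA, and the counts of these genes are uncertain as well. GCNT1 shares 262 exon bases with PRUNE2 on the opposite strand. The sources used here do not state whether strand was used in counting. Among the 35 genes with no named pseudogene and no overlap on the same strand, 8 were higher (22.9%) and 12 lower (34.3%). Among the 26 genes whose exons overlap no other annotated gene 4 were higher (15.4%) and 9 lower (34.6%). Over the 58 genes 20.7% were higher and 39.7% lower, and over all genes tested 28.3% and 29.3%. The share of lower genes in both subsets thus lay between that of the 58 and that of all genes. These subsets were chosen after the data were seen.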

How the data were processed

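PC3 RNA was made into stranded mRNA libraries and sequenced as single 75 bp reads. The authors used Cutadapt, HISAT2 (hg38) and featureCounts in Galaxy and deposited raw counts per gene; the annotation and the use of strand in counting are not given in the sources used here. Genes were matched by Entrez identifier, and 12661 of 12703 had a symbol. In R 4.3.3, edgeR 4.0.16 gave TMM factors and the quasi-likelihood test between groups, with Benjamini-Hochberg adjustment; its filterByExpr removed no gene. RPKM and isozyme shares used the MANE Select transcript length of GENCODE 44. Shares were compared by exact permutation in Python 3.11.15. Replicates differed beyond sampling noise (chi-square per degree of freedom 1.65 to 5.61), and the p-values measure the spread between these libraries. The tests were also run on simulated data.

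Named by rule were genes of the 58 past both thresholds, the smallest p per role and direction, their isozymes, up to 3 genes per outer list past both thresholds, and GCNT1. Other genes of the 58, SLC2A1, GALK2, PGM5 and PGM2L1 were picked for description after their values were seen. The genes and lists were chosen with earlier results of these data known. Summed isozyme levels, the exon union length, the subsets without copies or overlaps, the comparison with the most abundant genes and the promoter motifs were chosen after the data were seen. Alternatives were limma-voom (limma 3.58.1), DESeq2 1.42.0, RLE factors, library size without factors, no filter, a filter of 10 counts in each library, a replicate block, glmTreat, values relative to the 50 nearest genes and leaving out each library. Some results that the rule and lists give are not reported here. Protein sequences were not analysed here.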

Additional observations from a re-analysis of the deposited data

How the results depend on the processing

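Over the alternatives 908 single-gene comparisons were made for the 58 genes, GCNT1 and the 11 named genes of the outer lists, and 875 kept the call, 23 were weaker, 10 stronger and 0 reversed. The calls that were lost are given in the report. Calls were gained by GFPT1, GNPNAT1, IDH3G, PFKP, TALDO1 and UAP1 with library size alone, by GFPT1 without overexpressing library 1 or control library 1, and by IDH3G and PGM3 without control library 3. Values relative to the 50 nearest genes stand apart from that count, and there IDH3A (-0.02) and NANS (-0.06) turned from above 0 to below 0; the cause was not tested. With glmTreat, which tests against the fold threshold itself, 1392 of all genes passed, and of the 58 genes 1 was higher (SUCLG2) and 2 lower (ALDOC and RPE), 3 in all. With the replicate block 12 of the 58 were higher and 23 lower, 8 passed both thresholds, as did 2423 of all genes, and no call among the 58 was lost, while RPEL1 was (adjusted p 0.06). The libraries share only a number in their labels: deviations from the group mean had, for the same number, a mean correlation of -0.128 (lowest -0.273) and those of different numbers 0.0644, so the replicate block rests on no visible pairing. Leaving out 1 library gave 10 to 13 higher and 22 to 23 lower genes of the 58, 7 to 9 past both thresholds, and 2409 to 2511 of all genes past both. The 12 lower glycolysis genes kept their number each time, and the TCA cycle median was 0.01 without overexpressing library 2 or control library 3. Isozyme shares kept their directions with the exon union length.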
